A study of Mus musculus with 14 samples.

Results

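Skin of Nedd8 knockout mice that received no imiquimod was set directly against imiquimod-inflamed skin of wild-type mice, gene by gene. The comparison used the 3 libraries labelled knockout with DMSO and the 2 labelled wild type with imiquimod, chosen by their labels, which are 5 of the 14 libraries of the study. It asks what separates the changes that appear in knockout skin on its own from an inflammation produced with a drug. The other 9 libraries served to estimate the spread between replicates and to show the level of each gene in DMSO-treated skin.

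The knockout mice carried NEDD8fl/fl, with Nedd8 flanked by loxP sites on both chromosomes, together with K14-CreERT, a recombinase under a keratin 14 promoter that becomes active on induction, which was given on 5 days in a row before the experiment. Their libraries are labelled DMSO. The wild-type mice were C57BL/6J and received a cream with 5% imiquimod daily from day 0 to day 7. The recombinase acts in basal keratinocytes and their descendants, so fibroblasts, blood vessels and immune cells of the knockout skin are not its targets. The DMSO controls were 3 libraries of NEDD8fl/fl mice without the recombinase, called Cre-negative below, and 2 of wild-type C57BL/6J mice. The last 2 groups, Cre-negative and knockout with imiquimod, had 2 libraries each. Genotype, induction, imiquimod and the cream itself all differ between the knockout and the imiquimod group and cannot be told apart in this comparison. Shaved back skin or the right ear received the cream, and the labels do not separate the sites. They give no duration for DMSO, and no age or animal, so the p-values measure the spread between these samples.

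NEDD8 is a small protein that cells attach to cullins, the scaffolds of cullin-RING ubiquitin ligases, and the attachment switches these ligases on. One of their substrates is NRF2, a transcription factor for antioxidant and detoxifying enzymes that is held low by a CUL3 ligase. Imiquimod activates Toll-like receptor 7, and in mouse skin it sets off an inflammation driven by IL-23 and IL-17 with a thickened epidermis, much used as a model of psoriasis.

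The 5 libraries held 5552954, 9814586 and 34362477 counted reads for the knockout replicates and 31960197 and 13574424 for the imiquimod replicates. Knockout replicate 1 was the shallowest and carried 17.5% of its reads on an 18S ribosomal RNA gene, against 3.84% to 19.1% over all 14 libraries. Over all tested genes the Pearson correlation of log2 values between replicates was 0.923 to 0.977 within the knockout group and 0.945 within the imiquimod group, and between the groups it was 0.892 to 0.946. Reads of Xist were present in all 5 libraries and 4 Y-linked genes together reached at most 1.02 CPM, the read count scaled to library depth, so both groups carried the marks of female mice. Of the 5 DMSO controls 2 Cre-negative libraries carried Y-linked reads instead, as did both Cre-negative imiquimod libraries. Basal keratinocyte RNA was present in every library, with Krt14 at 17633, 12203 and 16801 CPM in the knockout and 13495 and 9156 CPM in the imiquimod libraries. Cartilage markers, which ear skin would bring, summed to 0.509, 0.291 and 0.395 CPM in the knockout and 0.0942 and 0.468 CPM in the imiquimod libraries over 12 genes.

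Nedd8 itself (ENSMUSG00000010376.16, chr14:55899720-55909581, minus strand, GRCm39) stood at 375, 158 and 147 CPM in the 3 knockout libraries and 684 and 376 CPM in the 2 imiquimod libraries. In Cre-negative DMSO skin it was at 360, 290 and 291 CPM and in wild-type DMSO skin at 203 and 270 CPM. All 3 knockout libraries lay below both imiquimod libraries, knockout replicate 1 level with the lower of them, and that replicate lay above every DMSO control. The log2 fold change of knockout over imiquimod skin was -1.23 ± 0.44 (SE), which did not pass edgeR's test at an adjusted p of 0.14. The labels do not say which exons are flanked, so tags from the 3′ end may lie outside the deleted part, and skin also holds cells without the recombinase.

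Of 16027 genes tested, 828 passed an adjusted p of 0.05 in the quasi-likelihood test of edgeR, Benjamini-Hochberg adjusted, which is 5.17%. In knockout skin 363 genes were higher (2.26%) and 465 were lower (2.90%) than in imiquimod skin, and log2 fold changes below are given in that direction with their standard error. The differences that passed were large, with a median of 2.48 on the log2 scale in either direction, while the median over all tested genes was 0.03. At least 4-fold differences made up 553 of the calls and at least 16-fold differences 185. The libraries of the 2 groups did not overlap for 823 of the 828 genes called, and for 4801 of all 16027 genes tested. At an unadjusted p under 0.05 there were 3122 genes. Without imiquimod replicate 1 the test called 284 genes, without knockout replicate 2 it called 418 and without knockout replicate 3 it called 437, while without knockout replicate 1 it called 900 and without imiquimod replicate 2 it called 777. On simulated counts with the depth and spread of these libraries the test recovered 1.49% of 2-fold, 50.7% of 4-fold and 92.4% of 16-fold differences. There 67, 67 and 66 genes were changed by these folds, and 8 unchanged genes were called. The adjustment is stricter where fewer genes differ, so the shares may be too low for these data, where 275 calls were under 4-fold. In the simulation most differences near 2-fold were missed. When libraries were scaled by library size alone, the median over all genes moved to 0.25 and the share of calls that were higher in knockout skin was 57.4%, against 43.8% with the scaling used.

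**Figure D1:**
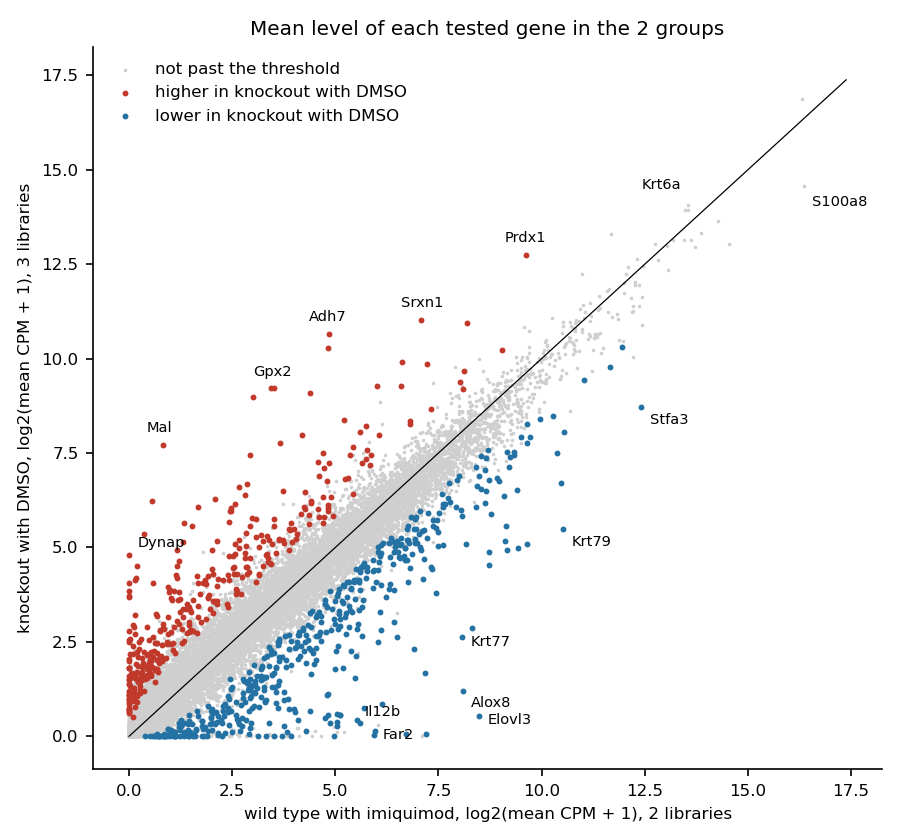
Mean level of each of the 16027 tested genes as log2(CPM + 1), with the 2 wild-type imiquimod libraries on the horizontal and the 3 knockout DMSO libraries on the vertical axis. Red points are the 363 genes higher and blue points the 465 genes lower in knockout skin past an adjusted p of 0.05, and the line marks equal levels. Krt6a and S100a8 are grey points near the upper end, Srxn1 and Prdx1 stand in red above the line, and Elovl3 and Far2 stand in blue along the lower edge.

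The 5 DMSO control libraries place these differences. Of the 363 genes higher in knockout skin, 128 lay above every control in all 3 knockout libraries and overlapped the controls in the imiquimod libraries, and 40 lay above the controls in knockout and below them in imiquimod skin. For 113 the knockout libraries overlapped the controls and the imiquimod libraries lay below them. In 48 both groups lay above the controls and the knockout group was the higher of the pair. Of the 465 genes lower in knockout skin, 166 lay below the controls in knockout skin and overlapped them in imiquimod skin, 44 lay below in knockout and above in imiquimod skin, and 102 overlapped the controls in knockout and lay above them in imiquimod skin. Both groups were below the controls for another 102 and above them for 38. This placement describes libraries and is not a test. It was counted among called genes only, so the calls themselves shape it and no share over all tested genes stands beside it. The controls also pool Cre-negative with wild-type mice and libraries of both sexes.

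Antioxidant and detoxifying enzymes stood higher in knockout skin. Of 45 tested NRF2 targets 25 were higher and 0 lower in knockout skin, the median log2 fold change was 1.78, and 42 of the 45 values were above 0. The members of this and the other lists were chosen with earlier results of these data known. Members with reads almost only in knockout skin, such as Ces1h, also pass the filter on low counts through that skin. The share of members called is therefore no independent support. The summed level of the list was 16273, 21263 and 17023 CPM in the knockout libraries and 3696 and 4123 CPM in the imiquimod libraries, against 2400 to 2741 CPM in the DMSO controls. The imiquimod libraries stood above the control range, and the knockout libraries far above both. Against each group's own DMSO skin the list's median was 2.21 for knockout against Cre-negative DMSO skin and -0.17 for imiquimod against wild-type DMSO skin.

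Enzymes of glutathione synthesis and use were among them. Gclc, the catalytic subunit of the enzyme that makes the glutathione precursor (ENSMUSG00000032350.10, chr9:77661817-77701767, plus strand, GRCm39), was at 345, 973 and 477 CPM in the knockout libraries and at 6.55 and 13.3 CPM in the imiquimod libraries. Its log2 fold change was 5.92 ± 0.67 (adjusted p = 0.00025), and the controls at 21.9 to 42.5 CPM lay between the groups. Gclm, the partner subunit, was at 316, 435 and 242 CPM in knockout and 35.2 and 37.5 CPM in imiquimod skin, a difference of 3.19 ± 0.37 (adjusted p = 0.00027). Gpx2, a glutathione peroxidase (ENSMUSG00000042808.11, chr12:76839111-76842273, minus strand, GRCm39), was at 882, 534 and 370 CPM and 14.5 and 6.31 CPM, a difference of 5.83 ± 0.60 (adjusted p = 0.00015), with controls at 1.09 to 5.00 CPM. The glutathione transferases Gsta3 (7.38 ± 0.99, adjusted p = 0.00085), Gstm1 (4.15 ± 0.49, adjusted p = 0.00029), Gsta2 (4.56 ± 0.64, adjusted p = 0.0012) and Gsta4 (2.64 ± 0.41, adjusted p = 0.0025) were also higher. Both groups lay above the controls for Gsta4, at 1020, 928 and 850 CPM in knockout and 191 and 108 CPM in imiquimod skin against 2.11 to 3.71 CPM. Copies of the Gsta and Gstm families are alike enough that the counting may have split reads among them.

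Thiol repair enzymes were higher at high levels of expression. Srxn1, sulfiredoxin, which restores oxidised peroxiredoxins (ENSMUSG00000032802.9, chr2:151947444-151953296, plus strand, GRCm39), was at 2057, 2077 and 2130 CPM in the knockout libraries, close to one another, and at 146 and 123 CPM in the imiquimod libraries. The difference was 3.95 ± 0.38 (adjusted p = 9.3e-05) and the controls lay lower still at 34 to 49.8 CPM. Prdx1, a peroxiredoxin, was at 5616, 8796 and 6236 CPM in knockout and 528 and 1037 CPM in imiquimod skin, a difference of 3.14 ± 0.56 (adjusted p = 0.0057). The quinone reductase Nqo1 (4.03 ± 0.56, adjusted p = 0.0011), the biliverdin reductase Blvrb (3.84 ± 0.40, adjusted p = 0.00015) and the epoxide hydrolase Ephx1 (3.95 ± 0.47, adjusted p = 0.0003) were higher as well. Ephx1 stood at 14.5, 23.3 and 17.0 CPM in knockout and 0.848 and 1.56 CPM in imiquimod skin, with controls at 9.98 to 13.9 CPM, so the knockout libraries lay just above and the imiquimod libraries far below them. Smaller differences that passed were those of Hmox1, heme oxygenase (1.61 ± 0.38, adjusted p = 0.029), and of the pentose phosphate enzymes Taldo1 (1.36 ± 0.30, adjusted p = 0.021) and Tkt (1.2 ± 0.29, adjusted p = 0.029). Slc7a11, the cystine importer, was at 233, 984 and 727 CPM in knockout and 77.1 and 253 CPM in imiquimod skin and did not pass (1.97 ± 0.75, adjusted p = 0.16), with controls at 1.17 to 4.95 CPM.

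With 1 library left out at a time, 13 of these 25 calls held each time, and the rest ended at adjusted p-values of 0.05 to 0.36, 1 without knockout replicate 1, 7 without knockout replicate 2, 7 without knockout replicate 3, 12 without imiquimod replicate 1 and 8 without imiquimod replicate 2. The other called members were Txn1 (2.68 ± 0.59, adjusted p = 0.019), the thioredoxin gene, Akr1b10 (2.64 ± 0.61, adjusted p = 0.025) and Gstm4 (2.49 ± 0.36, adjusted p = 0.0015). Gsta1 (6.05 ± 1.23, adjusted p = 0.012), Cbr1 (1.78 ± 0.33, adjusted p = 0.0081), Akr1b8 (1.57 ± 0.40, adjusted p = 0.04), Cbr3 (1.49 ± 0.39, adjusted p = 0.044), catalase, Cat (1.47 ± 0.34, adjusted p = 0.026), and Prdx6 (1.11 ± 0.30, adjusted p = 0.049) were higher as well. For Cbr3 the controls differed by mouse line, at 67.4, 67.6 and 66.5 CPM in Cre-negative and 25.3 and 21.1 CPM in wild-type DMSO skin. Against each group's own DMSO skin Cbr3 was at 2.21 for knockout and 2.26 for imiquimod skin. With the 2 Cre-negative imiquimod libraries in place of the wild-type ones, 19 of the 25 calls held. Both of those libraries carried Y-linked reads, unlike the knockout libraries, so here and below that swap changes sex together with the mouse line. Prdx1 lost its call without imiquimod replicate 1 (adjusted p = 0.085).

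**Figure D2:**
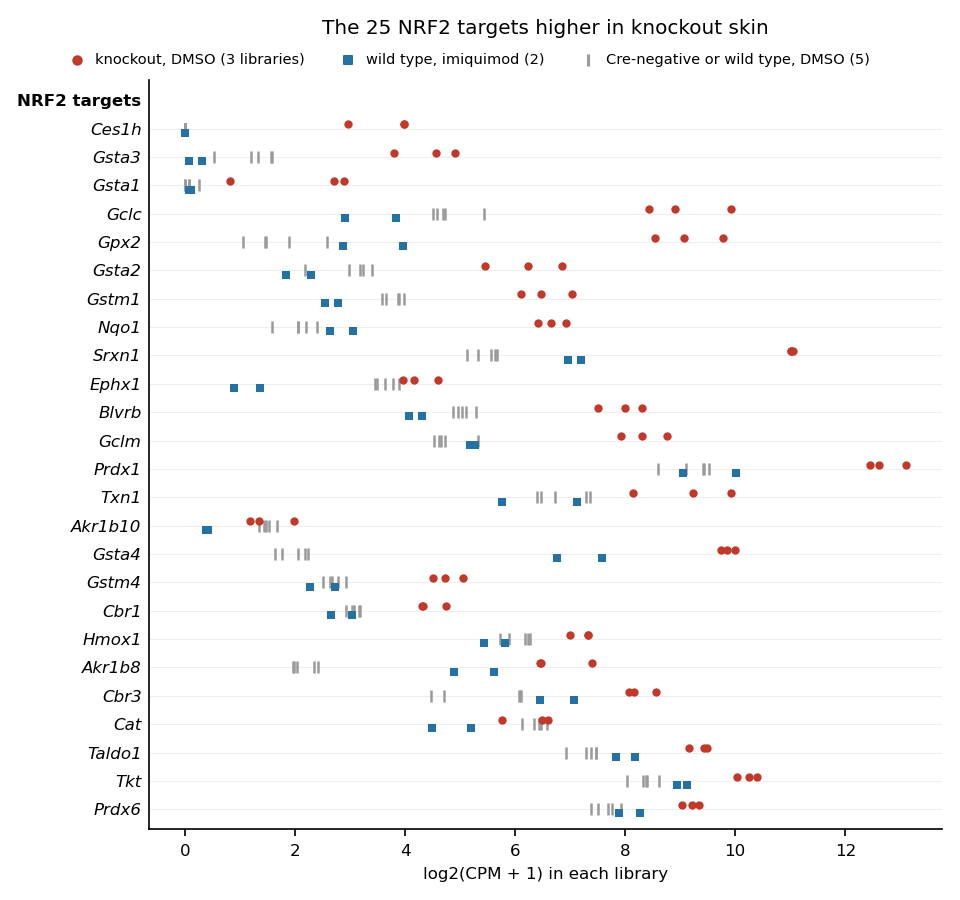
Levels of the 25 NRF2 targets higher in knockout skin, as log2(CPM + 1) on the horizontal axis, with 1 mark per library: red circles for the 3 knockout DMSO, blue squares for the 2 wild-type imiquimod and grey bars for the 5 DMSO control libraries. The red and blue marks of a gene do not overlap, and for genes such as Srxn1, Gpx2 and Gclc the red marks also stand clear of the controls.

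NRF2 binds an antioxidant response element, so promoters of the list were searched on both strands for its core, TGACNNNGC, from 250 bases before to 50 after each start in the RefSeq promoters of GRCm38.p6. The core was present in 11 of 38 list genes with a promoter (28.9%) and in 14% of all 27025 genes. It was present in 4 of the 21 matched genes that were higher in knockout skin (19.0%) and in 7 of the 17 that were not called (41.2%), so the letters alone did not follow the calls. The 4 called genes with the core are shown with 60 bases around it, 5′ to 3′ on the strand of the gene, and the capitals mark the core or its reverse complement.
Gclm (GRCm38.p6 chr3:122245398-122245457, plus strand): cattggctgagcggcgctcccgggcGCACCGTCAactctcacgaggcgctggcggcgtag
Gsta3 (GRCm38.p6 chr1:21240439-21240498, plus strand): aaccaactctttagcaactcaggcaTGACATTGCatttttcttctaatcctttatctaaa
Prdx1 (GRCm38.p6 chr4:116685441-116685500, plus strand): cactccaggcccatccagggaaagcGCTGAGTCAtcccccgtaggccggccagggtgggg
Srxn1 (GRCm38.p6 chr2:152105514-152105573, plus strand): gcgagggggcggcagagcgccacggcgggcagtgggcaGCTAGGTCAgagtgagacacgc
A match describes the letters of the window and not a bound site.

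Genes outside that list also ranked among the highest differences. Adh7, an alcohol dehydrogenase that can oxidise retinol, was at 1434, 1866 and 1534 CPM in the knockout libraries and 21.3 and 34.4 CPM in the imiquimod libraries, 57.8 times as high by the means, with a log2 fold change of 5.85 ± 0.67 (adjusted p = 0.00027). The controls at 73.0 to 142 CPM lay between the groups. Gsto1, a glutathione transferase of the omega class, was at 1132, 1316 and 1294 CPM and 25.7 and 29.2 CPM (5.51 ± 0.47, adjusted p = 7.5e-05). Ptgr1, a prostaglandin reductase, was at 1079, 822 and 978 CPM and 102 and 91.3 CPM (3.31 ± 0.37, adjusted p = 0.00025). Mal, a membrane protein of apical transport (ENSMUSG00000027375.15, chr2:127475146-127498615, minus strand, GRCm39), was at 237, 243 and 149 CPM in knockout skin and under 1 CPM in imiquimod skin, at 0.706 and 0.857 CPM. Its log2 fold change was 8.07 ± 0.65 (adjusted p = 4.3e-05), and its controls were at 0.930 to 2.18 CPM. Pthlh, the parathyroid hormone-like hormone made by keratinocytes, was at 12.0, 62.8 and 45.9 CPM and 0.424 and 0.156 CPM (6.99 ± 1.03, adjusted p = 0.0017). Tekt5 (7.18), the steroid reductase Akr1d1 (7.06) and Sptssb, a small subunit of serine palmitoyltransferase (7.11), had these log2 fold changes at adjusted p-values of 8.8e-05, 0.00074 and 0.0081. Sptssb lost its call without imiquimod replicate 1 (adjusted p = 0.1).

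Some of these genes had no read at all in the imiquimod libraries. Krt76, a keratin of oral mucosa, was at 24.2, 12.8 and 10.1 CPM in knockout skin and 0 in both imiquimod libraries, at least 178-fold higher against a floor of 3 counts over the group. Gcnt3, a mucin-type glycosyltransferase, was at 10.2, 21.1 and 8.88 CPM and 0, at least 152-fold higher, and the carboxylesterase Ces1h of the NRF2 list at 14.8, 14.8 and 6.79 CPM and 0, at least 137-fold higher. Dynap was at 54.8, 5.24 and 20.2 CPM and 0, at least 304-fold higher, and lost its call without imiquimod replicate 1 (adjusted p = 0.058). Lix1 was at 10.4, 13.9 and 11.2 CPM and 0, at least 134-fold higher. In the 5 DMSO controls Krt76 was at 0 to 0.0495 CPM, Gcnt3 at 0 CPM, Ces1h at 0 CPM, Dynap at 0 CPM and Lix1 at 0.201 to 0.656 CPM. These bounds cover counting error only. Rps13-ps1, a ribosomal protein pseudogene, met the naming rule with 11.7, 737 and 758 CPM in the knockout and 8.57 and 5.38 CPM in the imiquimod libraries, and knockout replicate 1 stood near the imiquimod libraries. Its call ended without imiquimod replicate 1 (adjusted p = 0.1) and without imiquimod replicate 2 (adjusted p = 0.072), and reads of such a pseudogene may come from its parent gene.

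Krt76 and Gcnt3 belong to a list of 25 genes usual in mucosal epithelia, of which 17 were tested and 3 had no read in either group. Of the 17 tested members 5 were higher and 1 was lower, with a median of 0.62. Genes with reads almost only in knockout skin pass the filter on low counts through that skin. The share of tested members that were higher is therefore no independent support. Slpi, a secreted protease inhibitor, was at 2589, 1833 and 1506 CPM in knockout and 321 and 258 CPM in imiquimod skin against 1.34 to 3.72 CPM in the controls, so both groups stood far above them and the knockout group higher (2.77 ± 0.45, adjusted p = 0.0032). Spink12, another protease inhibitor, was at 49.4, 33.6 and 55.9 CPM and 2.68 and 1.09 CPM (4.58 ± 0.62, adjusted p = 0.0017). The water channel Aqp5 was at 50.2, 13.6 and 24.3 CPM and 1.60 and 0.857 CPM (4.52 ± 0.78, adjusted p = 0.0046). The transcription factor Spdef was the member that was lower, at 1.02, 0.0971 and 0.197 CPM against 5.18 and 2.65 CPM (-3.73 ± 0.77, adjusted p = 0.021). Leaving out single libraries kept 5 of these 6 calls each time and ended 1 without knockout replicate 2, 1 without knockout replicate 3 and 1 without imiquimod replicate 1, at adjusted p-values of 0.083 to 0.18. Among ended calls the log2 fold change became -3.12 for Spdef (adjusted p = 0.18) without imiquimod replicate 1. 6 of the 6 held against the Cre-negative imiquimod libraries.

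Sebaceous gland genes were lower in knockout skin. Of 21 tested genes 8 were lower and 0 higher in knockout skin, with a median of -1.44. The summed level of the list was 766, 718 and 664 CPM in the knockout libraries, 4126 and 3056 CPM in the imiquimod libraries and 2633 to 3892 CPM in the DMSO controls. A sum is weighted to its abundant members. The list's median was -1.68 for knockout against Cre-negative DMSO skin and -1.07 for imiquimod against wild-type DMSO skin, below 0 in both. In whole skin, fewer cells of a type and less RNA per cell cannot be told apart, here and in the groups that follow.

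Far2, which makes the fatty alcohols of wax esters (ENSMUSG00000030303.16, chr6:147948757-148084256, plus strand, GRCm39), was at 0, 0.0971 and 0 CPM in the knockout libraries and at 41.3 and 79.1 CPM in the imiquimod libraries, a difference of -10.99 ± 0.80 (adjusted p = 3.4e-05). The controls were at 82.8 to 220 CPM, all above both imiquimod libraries. Elovl3, an elongase of very long fatty acids, was at 0, 1.26 and 0.0846 CPM in knockout and 372 and 345 CPM in imiquimod skin (-9.71 ± 0.89, adjusted p = 8.8e-05), with the imiquimod libraries above the controls at 64.3 to 221 CPM. The wax synthases Awat1 and Awat2 were lower, with log2 fold changes of -7.18 ± 0.84 (adjusted p = 0.00029) and -4.62 ± 0.61 (adjusted p = 0.00075). Awat1 stood at 0, 0.485 and 0.310 CPM in knockout and 15.6 and 79.6 CPM in imiquimod skin. Krt79, a keratin of the upper follicle and sebaceous duct, was at 47.4, 28.8 and 55.7 CPM and 1777 and 1169 CPM (-5.07 ± 0.48, adjusted p = 8.8e-05), against 480 to 1052 CPM in the controls. Mc5r, the melanocortin receptor of sebocytes (-4.21 ± 0.59, adjusted p = 0.0011), Soat1, which esterifies cholesterol (-2.60 ± 0.36, adjusted p = 0.0011), and Scd3, a desaturase (-2.18 ± 0.52, adjusted p = 0.028), completed the group. For Scd3, imiquimod skin at 23.0 and 29.7 CPM was itself far below the controls at 267 to 672 CPM, and its call was the 1 that ended below. In single-library leave-outs 7 of these 8 calls held each time, while 1 without knockout replicate 2, 1 without knockout replicate 3, 1 without imiquimod replicate 1 and 1 without imiquimod replicate 2 ended, at adjusted p-values of 0.073 to 0.1. With the Cre-negative imiquimod libraries 7 of the 8 held.

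Other lipid enzymes, and further genes that the naming rule picked, were lower too. Scd1, the main stearoyl-CoA desaturase of skin, was at 47.9, 41.5 and 50.6 CPM in knockout and 528 and 603 CPM in imiquimod skin against 516 to 1330 CPM in the controls (-3.60 ± 0.39, adjusted p = 0.00019). It was the 1 called gene among 27 tested for cholesterol and fatty acid synthesis, whose median was -0.43. Mgll, a monoglyceride lipase, was at 38.0, 36.8 and 25.1 CPM and 895 and 706 CPM (-4.59 ± 0.48, adjusted p = 0.00015). Fa2h, which hydroxylates fatty acids, was at 0.764, 0.0971 and 0.0282 CPM and 4.52 and 59.0 CPM (-7.94 ± 1.23, adjusted p = 0.0023), where the imiquimod libraries lay far from each other. The lipase Pnpla5 was at 0.509, 0.0971 and 0 CPM and 31.0 and 33.1 CPM (-8.65 ± 0.89, adjusted p = 0.0002). The thioesterase Acot5 was at 0.509, 0.0971 and 0 CPM and 8.57 and 16.7 CPM (-7.24 ± 1.12, adjusted p = 0.0023). AAdacl4fm3, of the arylacetamide deacetylase family, had no read in the 3 knockout libraries and stood at 26.5 and 33.7 CPM in imiquimod skin, at least 498-fold lower. Serpinb6d, a serpin, also had none, against 9.42 and 14.5 CPM, at least 198-fold lower. Hilpda, a lipid droplet protein, was at 177, 77.7 and 53.9 CPM in knockout skin, overlapping the controls at 40.6 to 126 CPM, and at 1922 and 893 CPM in imiquimod skin (-3.78 ± 0.55, adjusted p = 0.0015). Crygn, a gamma crystallin gene, was at 0, 0 and 0.0282 CPM and 16.6 and 4.36 CPM (-8.57 ± 1.16, adjusted p = 0.00089).

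Suprabasal keratinocytes make the keratins and envelope proteins of the barrier, and 8 of 30 tested genes of this programme were lower and 0 higher in knockout skin, with a median of -0.97. Krt77, a keratin of suprabasal interfollicular epidermis (ENSMUSG00000067594.7, chr15:101767166-101778140, minus strand, GRCm39), was at 3.57, 10.9 and 0.986 CPM in knockout and 139 and 400 CPM in imiquimod skin (-5.72 ± 0.79, adjusted p = 0.0011). The controls were at 6468 to 16010 CPM, so both groups stood far below them and the knockout libraries furthest. Krt10 was at 49.2, 21.4 and 22 CPM and 194 and 1191 CPM (-4.50 ± 0.83, adjusted p = 0.0074). Its partner Krt1 was at 323, 151 and 319 CPM and 1260 and 1736 CPM (-2.50 ± 0.62, adjusted p = 0.034). The envelope protein loricrin, Lor, was at 41.5, 9.22 and 37.2 CPM and 241 and 902 CPM (-4.29 ± 0.81, adjusted p = 0.0085). For all 3 the knockout libraries lay below every control, at 1863 to 8589, 455 to 1967 and 1379 to 3367 CPM, while the Krt1 level of imiquimod skin lay within the control range. The transglutaminase Tgm5 (-2.65 ± 0.40, adjusted p = 0.0019), the protease Klk5 (-1.69 ± 0.29, adjusted p = 0.0042), the caspase Casp14 (-2.06 ± 0.39, adjusted p = 0.0088) and the desmoglein Dsg1a (-1.53 ± 0.40, adjusted p = 0.042) were lower as well. Filaggrin, Flg, at 191, 232 and 759 CPM and 1381 and 1920 CPM (-2.07 ± 0.85, adjusted p = 0.19), and involucrin, Ivl, at 259, 172 and 275 CPM and 601 and 381 CPM (-1.06 ± 0.36, adjusted p = 0.11), did not pass. With 1 library left out at a time, 5 of these 8 calls held each time, and the rest ended at adjusted p-values of 0.054 to 0.21, 1 without knockout replicate 1, 2 without knockout replicate 2, 2 without knockout replicate 3, 1 without imiquimod replicate 1 and 3 without imiquimod replicate 2. Log2 fold changes of ended calls included -2.75 for Krt10 (adjusted p = 0.056) without imiquimod replicate 2. 7 of the 8 held against the Cre-negative imiquimod libraries, where Krt77 was at -1.38. DESeq2 called 12 of the list and limma-voom 6.

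Barrier lipid enzymes had 3 of 16 tested genes lower and 0 higher, with a median of -0.81. Smpd1, acid sphingomyelinase, was at 81.5, 61.1 and 69.8 CPM in knockout skin, overlapping the controls at 75.0 to 115 CPM, and at 433 and 360 CPM in imiquimod skin (-2.49 ± 0.29, adjusted p = 0.00029). Acer1, an epidermal ceramidase, was lower at -2.93 ± 0.57 (adjusted p = 0.01) and the elongase Elovl1 at -1.88 ± 0.37 (adjusted p = 0.011). Leaving out single libraries kept 1 of these 3 calls each time and ended 2 without imiquimod replicate 1, at adjusted p-values of 0.16 to 0.18. For ended calls it was -1.93 for Acer1 (adjusted p = 0.18) and -1.27 for Elovl1 (adjusted p = 0.16) without imiquimod replicate 1. 1 of the 3 held against the Cre-negative imiquimod libraries, where Elovl1 was at -0.64 and Acer1 was at -1.74. Among late cornified envelope genes 1 of 14 tested Lce1 genes was lower, Lce1j (-3.01 ± 0.60, adjusted p = 0.012). Of 6 Lce3 genes 0 passed edgeR's test (2 at an unadjusted p under 0.05, 0 by DESeq2, 1 by limma-voom). The Lce1 and Lce3 medians were -1.19 and -0.26. Lce3c was at 821, 270 and 354 CPM in knockout and 496 and 353 CPM in imiquimod skin, an overlapping range far above the controls at 3.41 to 29.5 CPM. Of 12 small proline-rich genes 1 was lower, Sprr2i (-2.89 ± 0.70, adjusted p = 0.029). Sprr1a was at 7237, 3145 and 4071 CPM and 2245 and 1759 CPM (1.27 ± 0.47, adjusted p = 0.15). Lce1j lost its call without knockout replicate 2 (adjusted p = 0.052), without knockout replicate 3 (adjusted p = 0.05) and without imiquimod replicate 2 (adjusted p = 0.059). Sprr2i lost its call without knockout replicate 2 (adjusted p = 0.11), without knockout replicate 3 (adjusted p = 0.1) and without imiquimod replicate 1 (adjusted p = 0.22). Sprr2 and Lce copies share sequence, so their single values are uncertain.

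Keratins of wounded and hyperproliferative epidermis held no call between the groups. Of 5 tested genes 0 passed edgeR's test, 0 had an unadjusted p under 0.05 and 0 passed DESeq2 or limma-voom, with a median of -0.20. Krt6a was at 17110, 14507 and 19515 CPM in knockout and 12075 and 11761 CPM in imiquimod skin (0.52 ± 0.39, adjusted p = 0.51), against 93.9 to 180 CPM in the controls. Krt6b was at 7802, 3686 and 7299 CPM and 7335 and 7094 CPM (-0.20 ± 0.61, adjusted p = 0.9). Krt16 was at 7040, 2366 and 3198 CPM and 6723 and 3053 CPM (-0.22 ± 0.52, adjusted p = 0.87). Krt17 was at 1923, 1065 and 1738 CPM and 2771 and 2226 CPM (-0.67 ± 0.34, adjusted p = 0.32). In both groups these keratins stood far above the controls. A p that misses the threshold does not show equal levels, and the standard error of 0.61 for Krt6b leaves room for a 2-fold difference either way. Against each group's own DMSO skin the list's median was 6.06 for knockout against Cre-negative DMSO skin and 6.59 for imiquimod against wild-type DMSO skin.

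Basal keratinocyte and hemidesmosome genes had 2 of 17 tested members higher and 1 lower, with a median of 0.46. Lama3, a laminin chain of the epidermal basement membrane, was higher at 15.5, 60.9 and 36.2 CPM against 6.4 and 8.49 CPM (2.34 ± 0.54, adjusted p = 0.024). Krt15, a keratin of resting basal cells and follicle stem cells, was at 17.3, 29.8 and 31.0 CPM in knockout and 56.7 and 102 CPM in imiquimod skin (-1.60 ± 0.36, adjusted p = 0.021), both far below the 1397 to 2228 CPM of the controls. Krt5 and Krt14 did not pass, at 1.04 ± 0.49 and 0.46 ± 0.39 (adjusted p = 0.27 and 0.58). In single-library leave-outs 1 of these 3 calls held each time, while 2 without knockout replicate 2, 1 without knockout replicate 3, 1 without imiquimod replicate 1 and 2 without imiquimod replicate 2 ended, at adjusted p-values of 0.052 to 0.21. 2 of the 3 held against the Cre-negative imiquimod libraries, where Krt15 was at -0.44. Of 12 desmosomal genes 1 was higher, the desmocollin Dsc2, at 257, 270 and 357 CPM against 67.5 and 38.1 CPM (2.48 ± 0.52, adjusted p = 0.016), with controls at 7.16 to 22.7 CPM. Dsc2 lost its call without imiquimod replicate 1 (adjusted p = 0.062) and without imiquimod replicate 2 (adjusted p = 0.1). The median of the desmosomal list was -0.13 and 0.10 with library size alone, so its sign depends on the scaling.

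**Figure D3:**
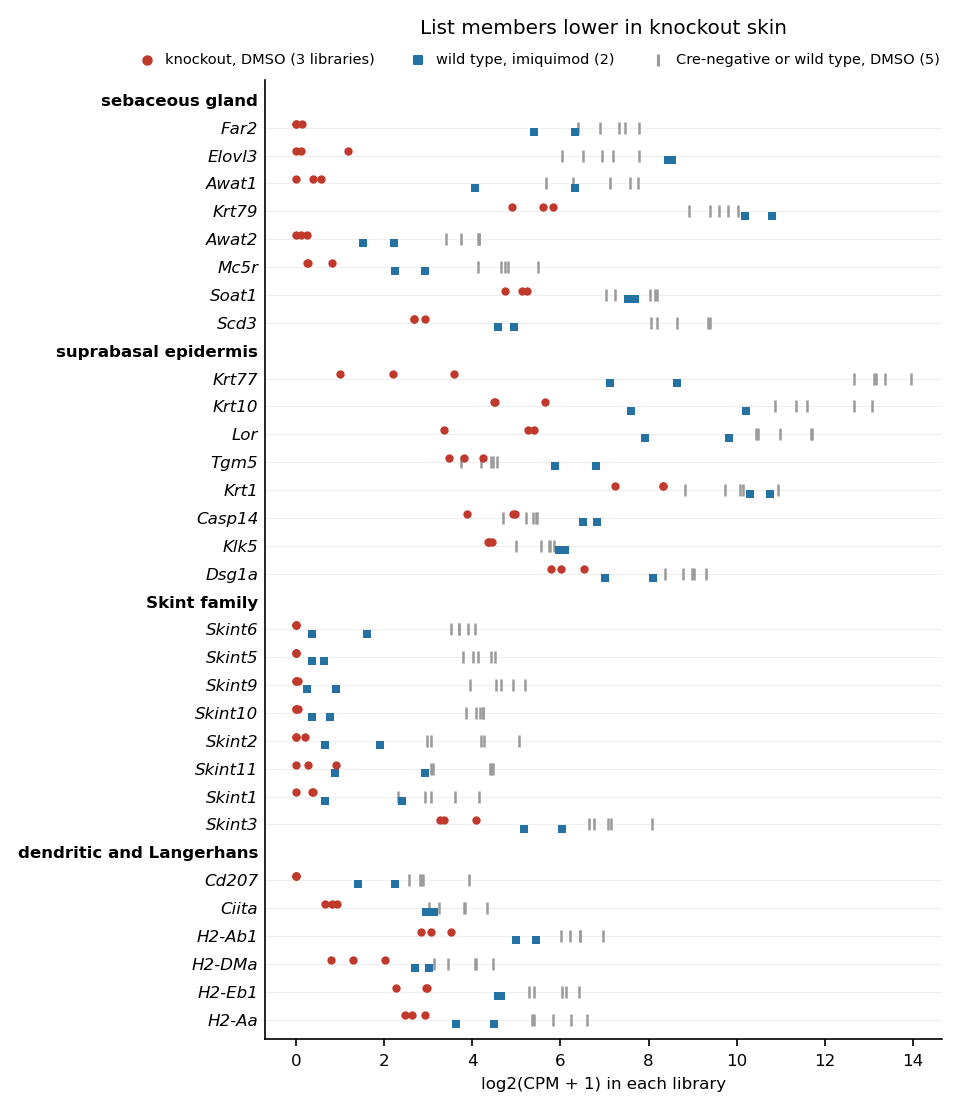
Levels of the members of 4 lists that were lower in knockout skin, as log2(CPM + 1) on the horizontal axis, with 1 mark per library: red circles for the 3 knockout DMSO, blue squares for the 2 wild-type imiquimod and grey bars for the 5 DMSO control libraries. Knockout libraries lie at or near 0 for Far2, Elovl3, Cd207 and most Skint genes, and for Skint6, Cd207 and H2-Ab1 the imiquimod libraries lie between them and the controls.

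Antimicrobial proteins and IL-17 target genes differed gene by gene. Of 27 tested genes 2 were higher and 7 lower in knockout skin, with a median of -0.80. The list's median against each group's own DMSO skin was 4.43 for knockout against Cre-negative DMSO skin and 5.20 for imiquimod against wild-type DMSO skin. The alarmin S100a8 was at 49785, 12884 and 11013 CPM in knockout and 123589 and 45155 CPM in imiquimod skin against 37.1 to 452 CPM in the controls, and S100a9 at 13395, 5615 and 6002 CPM and 29275 and 18839 CPM. Neither passed (-1.78 ± 0.98, adjusted p = 0.34 and -1.53 ± 0.86, adjusted p = 0.36), with knockout replicate 1 above the other knockout libraries for both.

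The beta-defensins lay on both sides, and copies of this family may share reads. Defb4, a homologue of an inducible human defensin, was at 65.7, 34.3 and 38.5 CPM in knockout and 8.38 and 12.5 CPM in imiquimod skin (2.14 ± 0.52, adjusted p = 0.031). Defb14 was at 90.4, 242 and 206 CPM and 14.7 and 35.2 CPM (2.85 ± 0.72, adjusted p = 0.037). Defb6 lay the other way at 27.8, 51.6 and 24.9 CPM and 335 and 765 CPM (-3.98 ± 0.47, adjusted p = 0.0003), with the knockout libraries below every control at 177 to 543 CPM. Defb3 was at 5.86, 15.8 and 4.68 CPM and 57.9 and 76.1 CPM (-2.92 ± 0.77, adjusted p = 0.045). Lipocalin 2, Lcn2, an iron-scavenging protein, was at 1.27, 14.8 and 2.11 CPM and 55.3 and 79.9 CPM (-3.45 ± 0.81, adjusted p = 0.026). Serum amyloid Saa1 was at 9.42, 10.4 and 1.61 CPM and 101 and 68.6 CPM (-3.63 ± 0.78, adjusted p = 0.017). The chitinase-like Chil1 was at 32.6, 24.8 and 28.3 CPM and 332 and 519 CPM (-3.90 ± 0.65, adjusted p = 0.0036). The feedback regulators Zc3h12a, which degrades cytokine mRNAs, and Nfkbiz, a cofactor of IL-17 responses, were lower at -2.97 ± 0.63 (adjusted p = 0.017) and -2.11 ± 0.56 (adjusted p = 0.045). With 1 library left out at a time, 2 of these 9 calls held each time, and the rest ended at adjusted p-values of 0.056 to 0.32, 2 without knockout replicate 1, 1 without knockout replicate 2, 6 without knockout replicate 3, 7 without imiquimod replicate 1 and 5 without imiquimod replicate 2. Among ended calls the log2 fold change became 3.52 for Defb14 (adjusted p = 0.064) without imiquimod replicate 2. With the Cre-negative imiquimod libraries 5 of the 9 held.

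Stefins, inhibitors of cysteine proteases, had 3 of 10 tested members lower and 0 higher, with a median of -0.60. Stfa3 was at 467, 318 and 471 CPM in knockout skin, inside the wide control range of 21.9 to 655 CPM, and at 5947 and 4978 CPM in imiquimod skin (-3.71 ± 0.69, adjusted p = 0.0081). Stfa1 (-2.72 ± 0.68, adjusted p = 0.034) and Stfa2 (-2.50 ± 0.56, adjusted p = 0.021) were the others, and the copies of this family share sequence. Stfa1 lost its call without knockout replicate 1 (adjusted p = 0.074), without knockout replicate 2 (adjusted p = 0.054), without knockout replicate 3 (adjusted p = 0.1), without imiquimod replicate 1 (adjusted p = 0.07) and without imiquimod replicate 2 (adjusted p = 0.12). Stfa2 lost its call without knockout replicate 2 (adjusted p = 0.078), without knockout replicate 3 (adjusted p = 0.053), without imiquimod replicate 1 (adjusted p = 0.056) and without imiquimod replicate 2 (adjusted p = 0.074), while that of Stfa3 held.

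The cytokine axis that imiquimod is known for held a large difference in 1 subunit. Il12b, the p40 subunit shared by IL-12 and IL-23 (ENSMUSG00000004296.15, chr11:44290890-44304860, plus strand, GRCm39), was at 0.764, 0.0971 and 0.197 CPM in the knockout libraries, which overlapped the controls at 0 to 2.77 CPM, and at 44.0 and 45.7 CPM in the imiquimod libraries. The difference was -7.49 ± 0.71 (adjusted p = 8.8e-05). In Cre-negative skin with imiquimod it was at 4.45 and 2.15 CPM, far below the wild-type imiquimod libraries. Il23a, the other IL-23 subunit, was at 2.55, 2.23 and 1.47 CPM and 4.80 and 8.03 CPM (-1.67 ± 0.49, adjusted p = 0.066) and did not pass. Il17a was at 0, 0 and 0.0282 CPM and 0.283 and 0.234 CPM and Il17f at 0, 0 and 0 CPM and 0.377 and 0.701 CPM, a few reads per library, and neither passed (adjusted p = 0.12 and 0.076). Il22 had no read in knockout skin and stood at 0.141 and 0.156 CPM in imiquimod skin, and Il17c had none in either group, so neither was tested. Il22ra2, the soluble IL-22 antagonist, was lower (-3.31 ± 0.75, adjusted p = 0.023), and Trdc, the constant chain of the delta T cell receptor, was higher at 7.90, 12.1 and 7.75 CPM against 1.74 and 1.48 CPM (2.51 ± 0.55, adjusted p = 0.018). Of 13 tested genes of the axis 1 was higher and 2 were lower, with a median of -1.27. Leaving out single libraries kept 1 of these 3 calls each time and ended 2 without knockout replicate 2, 1 without knockout replicate 3, 1 without imiquimod replicate 1 and 2 without imiquimod replicate 2, at adjusted p-values of 0.06 to 0.13. Log2 fold changes of ended calls included -2.68 for Il22ra2 (adjusted p = 0.13) without knockout replicate 3, and -2.20 for Il22ra2 (adjusted p = 0.12) without imiquimod replicate 2. 2 of the 3 held against the Cre-negative imiquimod libraries, where Trdc was at 1.07. DESeq2 called 5 of the list and limma-voom 2.

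In the IL-1 family 2 receptor antagonists were lower in knockout skin. Il1rn, the IL-1 receptor antagonist, was at 94.8, 76.8 and 99.0 CPM in knockout skin, overlapping the controls at 67.5 to 148 CPM, and at 697 and 647 CPM in imiquimod skin (-2.90 ± 0.39, adjusted p = 0.00085). Il36rn, the IL-36 receptor antagonist, was at 118, 63.4 and 95.4 CPM and 360 and 378 CPM (-2.0 ± 0.52, adjusted p = 0.044). Il1b was at 68.8, 29.0 and 103 CPM and 65.5 and 73.9 CPM (-0.05 ± 0.46, adjusted p = 0.97). Il36a was at 231, 79.2 and 64.8 CPM and 254 and 289 CPM (-1.12 ± 0.66, adjusted p = 0.38). Il36g was at 250, 87.5 and 113 CPM and 123 and 86.8 CPM (0.51 ± 0.42, adjusted p = 0.55), and none of these 3 passed. Over 18 tested genes 0 were higher and 2 lower, with a median of -0.30. The call of Il1rn held with each single library left out. Il36rn lost its call without knockout replicate 2 (adjusted p = 0.16), without knockout replicate 3 (adjusted p = 0.11), without imiquimod replicate 1 (adjusted p = 0.18) and without imiquimod replicate 2 (adjusted p = 0.088).

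Within the IL-20 family Il19 and Il24 differed in opposite directions. Il19 was at 57.6, 20.9 and 21.2 CPM in knockout and 380 and 193 CPM in imiquimod skin (-3.13 ± 0.61, adjusted p = 0.0099). Il24 was at 20.9, 54.4 and 17.2 CPM and 7.16 and 3.43 CPM (2.53 ± 0.59, adjusted p = 0.031), where the DMSO controls held 0 to 0.874 and 0 to 0.10 CPM. The receptor chain Il20rb was at 36.2, 22.1 and 40.3 CPM and 90.0 and 100 CPM (-1.53 ± 0.28, adjusted p = 0.0073), both below the 150 to 262 CPM of the controls. In single-library leave-outs 1 of these 3 calls held each time, while 1 without knockout replicate 2, 2 without imiquimod replicate 1 and 1 without imiquimod replicate 2 ended, at adjusted p-values of 0.083 to 0.12. For ended calls it was -2.54 for Il19 (adjusted p = 0.095) and 3.18 for Il24 (adjusted p = 0.084) without imiquimod replicate 1, and 1.83 for Il24 (adjusted p = 0.083) without knockout replicate 2. 2 of the 3 held against the Cre-negative imiquimod libraries, where Il19 was at -1.0.

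Chemokines and a growth factor for neutrophils overlapped between the groups. Cxcl1 was at 1.53, 23.5 and 4.54 CPM and 8.15 and 27.1 CPM. Cxcl5 was at 10.2, 81.7 and 14.4 CPM and 11 and 46.9 CPM. Cxcl2 was at 28.5, 21.5 and 38.3 CPM and 18.5 and 26.1 CPM and Csf3 at 4.33, 5.82 and 1.35 CPM and 5.04 and 2.81 CPM, all above the controls, and none of the 4 passed (adjusted p = 0.64, 0.88, 0.73 and 0.95). Among 17 CC chemokines 1 was higher, Ccl8, at 254, 123 and 68.7 CPM against 24.2 and 31.3 CPM (2.42 ± 0.65, adjusted p = 0.047). Its controls, at 16.9 to 234 CPM, overlapped both groups but differed by mouse line. Cre-negative DMSO skin stood at 165, 149 and 234 CPM and wild-type DMSO skin far lower. Against each group's own DMSO skin Ccl8 was at -0.3 ± 0.52 for knockout and 0.4 ± 0.65 for imiquimod skin. The higher level in knockout skin was therefore not seen over its own controls. Against the Cre-negative imiquimod libraries Ccl8 did not pass (0.73, adjusted p = 0.59). Ccl8 lost its call without knockout replicate 1 (1.77, adjusted p = 0.095), without knockout replicate 2 (adjusted p = 0.082), without imiquimod replicate 1 (adjusted p = 0.33) and without imiquimod replicate 2 (adjusted p = 0.12). The median of that list was 0.11. Of 13 tested epidermal cytokines and EGF receptor ligands 3 were higher and 0 lower, with a median of 0.55. Btc, betacellulin, was at 409, 221 and 162 CPM and 58.2 and 36.7 CPM (2.47 ± 0.48, adjusted p = 0.0096). Nrg1, neuregulin, was at 19.6, 27.5 and 20.5 CPM and 12.1 and 7.56 CPM (1.19 ± 0.32, adjusted p = 0.049). The epithelial cytokine Tslp was at 5.09, 3.79 and 10.3 CPM and 0.612 and 1.64 CPM (2.58 ± 0.62, adjusted p = 0.029). Of these 3 calls 0 stood whichever of the 5 libraries was left out, and 1 without knockout replicate 2, 2 without knockout replicate 3, 2 without imiquimod replicate 1 and 2 without imiquimod replicate 2 ended, at adjusted p-values of 0.069 to 0.28. 2 of the 3 held against the Cre-negative imiquimod libraries, where Tslp was at -1.36. DESeq2 called 4 of the list and limma-voom 1. Tslp in Cre-negative imiquimod skin was at 9.61 and 23.8 CPM, and the direction was the reverse against those libraries (-1.36).

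**Figure D4:**
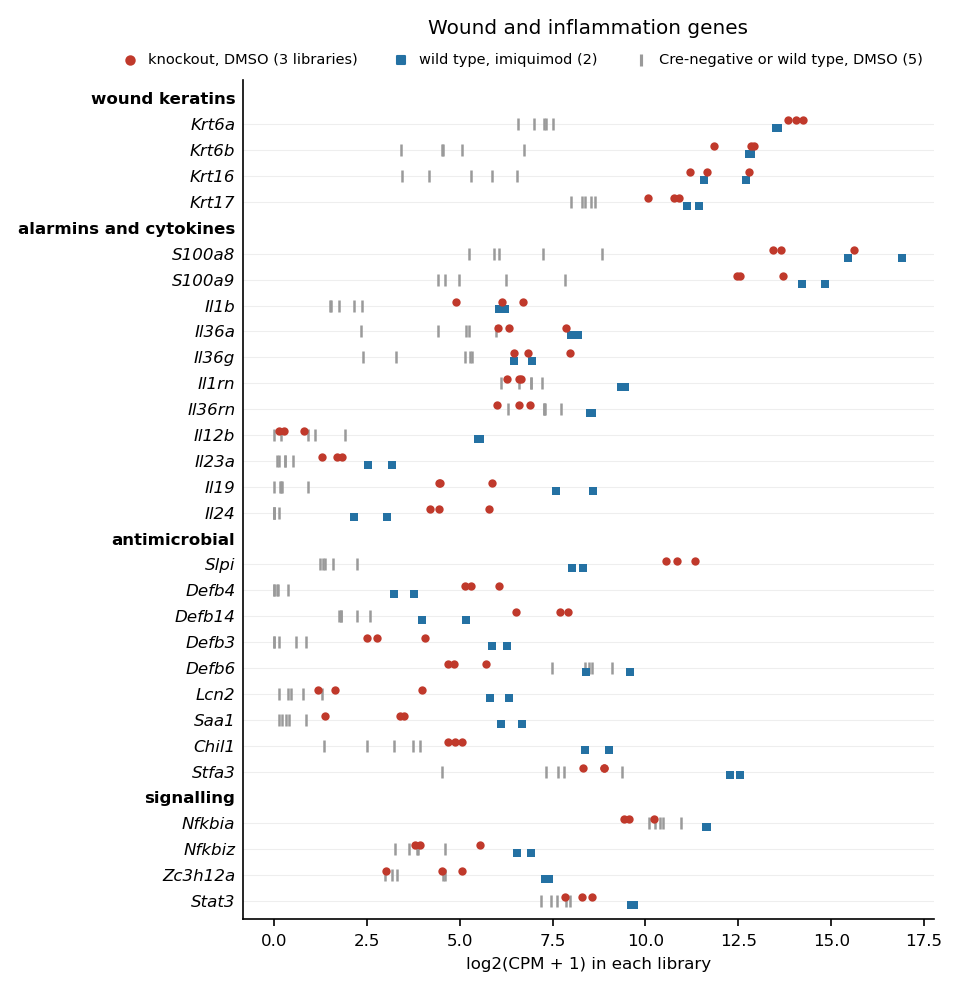
Levels of wound keratins, cytokines, antimicrobial genes and signalling genes as log2(CPM + 1) on the horizontal axis, with 1 mark per library: red circles for the 3 knockout DMSO, blue squares for the 2 wild-type imiquimod and grey bars for the 5 DMSO control libraries. Krt6a, Krt6b, Krt16 and Il1b show red and blue marks side by side far above the grey ones, while Il12b, Il1rn and Stfa3 show red marks among the grey ones and blue marks above.

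Transcription factors and feedback genes of stress signalling were mostly lower where they differed. Nfkbia, the inhibitor of NF-kappaB that is itself induced by it, was at 679, 1204 and 749 CPM in knockout and 3170 and 3251 CPM in imiquimod skin (-1.87 ± 0.36, adjusted p = 0.0095), with controls at 1097 to 1979 CPM. The call of Nfkbia ended against the Cre-negative imiquimod libraries and when only the 2 groups compared were fitted. Stat3, the transducer of IL-6 and IL-22 signals, was at 226, 313 and 375 CPM and 821 and 781 CPM (-1.39 ± 0.33, adjusted p = 0.026). Among 17 AP-1 and stress factors Jun (-1.29 ± 0.27, adjusted p = 0.016), Egr1 (-1.83 ± 0.44, adjusted p = 0.029) and Stat3 were lower. Maff, a small MAF partner of NRF2, was higher at 21.4, 18.3 and 15.8 CPM against 7.49 and 8.18 CPM (1.23 ± 0.30, adjusted p = 0.032), with a median of -0.48. The immediate early gene Ier3 was at 785, 724 and 574 CPM and 2646 and 1503 CPM (-1.58 ± 0.33, adjusted p = 0.014). Leaving out single libraries kept 0 of these 4 calls each time and ended 2 without knockout replicate 1, 3 without knockout replicate 2, 3 without knockout replicate 3, 4 without imiquimod replicate 1 and 2 without imiquimod replicate 2, at adjusted p-values of 0.052 to 0.21. 0 of the 4 held against the Cre-negative imiquimod libraries, where Maff was at 0.37 and Stat3 was at -0.16. DESeq2 called 5 of the list and limma-voom 1. Ier3 lost its call without knockout replicate 3 (adjusted p = 0.06) and without imiquimod replicate 1 (adjusted p = 0.19), and its direction was the reverse against the Cre-negative imiquimod libraries (0.31).

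Interferon response genes were near the background of all genes. Of 36 tested type I interferon response genes 1 was higher and 0 lower, with a median of 0.01. The gene was Oasl1, at 3.31, 4.17 and 2.93 CPM against 0.377 and 0.390 CPM (3.15 ± 0.51, adjusted p = 0.0033), and its call held with each single library left out. Isg15 was at 25, 7.08 and 15 CPM and 6.78 and 11.5 CPM (0.77 ± 0.55, adjusted p = 0.49). A pair of GAAA runs with 2 bases between them, the core of the interferon response element, was found on either strand in the promoters of 16 of 29 matched genes of this list (55.2%), in 4.0% of all genes and in 0 of 38 NRF2 targets. Among 22 type II interferon and guanylate-binding genes 1 was lower, the chemokine Cxcl9, at 0, 0.194 and 0.254 CPM against 2.50 and 2.42 CPM (-3.54 ± 0.72, adjusted p = 0.012), with a median of -0.38. Against the Cre-negative imiquimod libraries Cxcl9 did not pass (adjusted p = 0.33). Cxcl9 lost its call without knockout replicate 3 (adjusted p = 0.05) and without imiquimod replicate 1 (adjusted p = 0.064). Of 20 Toll-like receptor genes and adaptors 1 was lower, Irak3, at 2.29, 7.47 and 2.56 CPM against 9.23 and 22 CPM (-1.90 ± 0.51, adjusted p = 0.05). Tlr7, the receptor of imiquimod, was at 0.764, 0.679 and 0.507 CPM and 0.377 and 0.234 CPM (0.94 ± 0.60, adjusted p = 0.43). Irak3 lost its call without knockout replicate 1 (adjusted p = 0.086), without knockout replicate 3 (adjusted p = 0.15) and without imiquimod replicate 2 (-1.24, adjusted p = 0.2). The median of the Toll-like list was -0.20, and 0.06 with library size alone.

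Langerhans cell and MHC class II genes were lower in knockout skin. Of 20 tested dendritic and Langerhans cell markers 6 were lower and 1 higher, with a median of -1.11. Cd207, langerin of Langerhans cells, had no read in the 3 knockout libraries and was at 1.65 and 3.74 CPM in imiquimod skin and 4.92 to 14.2 CPM in the controls, at least 44.6-fold lower than in imiquimod skin. Ciita, the master activator of MHC class II genes, was at 0.764, 0.582 and 0.902 CPM and 6.73 and 7.71 CPM (-3.21 ± 0.39, adjusted p = 0.00038). Its target H2-Ab1 was at 10.4, 6.11 and 7.36 CPM and 42.3 and 30.9 CPM (-2.22 ± 0.37, adjusted p = 0.0041), with controls at 63.4 to 124 CPM. H2-Eb1 (-2.06 ± 0.33, adjusted p = 0.0032), H2-Aa (-1.58 ± 0.39, adjusted p = 0.035) and H2-DMa (-2.07 ± 0.53, adjusted p = 0.041) were lower as well. Siglech, a marker of plasmacytoid dendritic cells, was the member that was higher, at 0.764, 0.485 and 0.620 CPM against 0 in both imiquimod libraries, at least 7.08-fold, and its controls were at 0.437 to 1.71 CPM. With 1 library left out at a time, 4 of these 7 calls held each time, and the rest ended at adjusted p-values of 0.064 to 0.22, 1 without knockout replicate 1, 2 without knockout replicate 2, 2 without knockout replicate 3, 2 without imiquimod replicate 1 and 1 without imiquimod replicate 2. 5 of the 7 held against the Cre-negative imiquimod libraries, where Siglech was at 2.58.

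Among other leukocyte markers there were fewer calls. Of 28 monocyte and macrophage markers 4 were lower and 1 higher, with a median of -0.36. Cx3cr1, a fractalkine receptor, was at 2.55, 2.33 and 1.69 CPM in knockout and 12.0 and 8.88 CPM in imiquimod skin (-2.30 ± 0.32, adjusted p = 0.0012), and its call held in each leave-out. Marco (-3.99 ± 0.93, adjusted p = 0.026) and Fcgr4 (-2.82 ± 0.72, adjusted p = 0.039) were lower too. Spp1, osteopontin, was higher at 62.7, 12.3 and 24.6 CPM against 6.5 and 3.43 CPM (2.71 ± 0.68, adjusted p = 0.035). In single-library leave-outs 1 of these 5 calls held each time, while 1 without knockout replicate 1, 2 without knockout replicate 2, 4 without knockout replicate 3, 3 without imiquimod replicate 1 and 3 without imiquimod replicate 2 ended, at adjusted p-values of 0.054 to 0.23. Among ended calls the log2 fold change became -3.38 for Marco (adjusted p = 0.086) without imiquimod replicate 2, and 1.87 for Spp1 (adjusted p = 0.065) without knockout replicate 1. 3 of the 5 held against the Cre-negative imiquimod libraries. DESeq2 called 8 of the list and limma-voom 1. Neutrophil markers had 1 of 25 higher, Mmp9 (2.42 ± 0.58, adjusted p = 0.029), and 1 lower, Lcn2, both also made by other cells, with a median of -0.52. Ly6g, which defines neutrophils, was at 0.255, 1.65 and 1.07 CPM and 0.612 and 0.623 CPM (0.82 ± 0.65, adjusted p = 0.54) and at 0 in all controls. Mmp9 lost its call without knockout replicate 1 (adjusted p = 0.052), without knockout replicate 3 (adjusted p = 0.068), without imiquimod replicate 1 (adjusted p = 0.12) and without imiquimod replicate 2 (adjusted p = 0.13). Lcn2 lost its call without knockout replicate 3 (adjusted p = 0.084), without imiquimod replicate 1 (adjusted p = 0.069) and without imiquimod replicate 2 (adjusted p = 0.058).

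Among T and NK cell markers 3 of 23 tested were lower and 1 was higher, with a median of -1.32. The summed level of the list was 70.0, 59.6 and 74.0 CPM in knockout, 90.1 and 86.3 CPM in imiquimod skin and 94.5 to 147 CPM in the controls. Prf1, perforin, was at 0, 0 and 0.113 CPM and 0.565 and 0.623 CPM (-2.88 ± 0.74, adjusted p = 0.041). Il2rb was at 0.509, 1.55 and 1.97 CPM and 4.76 and 8.49 CPM (-2.13 ± 0.51, adjusted p = 0.03). Gzma, a granzyme, was at 0.255, 0.0971 and 0.197 CPM and 1.79 and 0.857 CPM (-2.87 ± 0.77, adjusted p = 0.047). The higher member was Trdc, given above. Cd3e was at 0, 0.0971 and 0.0846 CPM in knockout and 0.283 and 0.156 CPM in imiquimod skin. Leaving out single libraries kept 0 of these 4 calls each time and ended 2 without knockout replicate 1, 4 without knockout replicate 2, 3 without knockout replicate 3, 3 without imiquimod replicate 1 and 3 without imiquimod replicate 2, at adjusted p-values of 0.053 to 0.41. Log2 fold changes of ended calls included -2.21 for Gzma (adjusted p = 0.41) without imiquimod replicate 1, and -6.01 for Prf1 (adjusted p = 0.054) without knockout replicate 3. 3 of the 4 held against the Cre-negative imiquimod libraries, where Trdc was at 1.07. DESeq2 called 6 of the list and limma-voom 1. Of 6 tested B cell and plasma cell markers and 11 mast cell, basophil and eosinophil markers 0 passed edgeR's test, against 3 and 2 at an unadjusted p under 0.05, 1 and 0 by DESeq2 and 0 by limma-voom, with medians of -2.15 and 0.33.

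The Skint genes, butyrophilin-like genes of keratinocytes of which Skint1 is needed for the selection of epidermal gamma-delta T cells, were mostly lower. Of 10 tested genes 8 were lower and 1, Skint7, was higher at 1.02, 1.26 and 0.479 CPM against 0 and 0.0779 CPM (4.48 ± 1.12, adjusted p = 0.04), with a median of -3.63. Their sum was 11.5, 12.4 and 18.6 CPM in the knockout libraries, 39.8 and 89.8 CPM in the imiquimod libraries and 210 to 522 CPM in the controls, so both groups lay below the controls and the knockout group lowest. Skint6 had no read in knockout skin and stood at 0.283 and 2.03 CPM in imiquimod skin, at least 19.1-fold lower, and at 10.4 to 15.7 CPM in the controls. Skint3, the most abundant of them, was at 9.17, 8.54 and 15.9 CPM and 35.2 and 64.8 CPM (-2.14 ± 0.44, adjusted p = 0.014). These values are low and the copies share sequence. Skint7 lost its call without knockout replicate 1 (adjusted p = 0.054), without knockout replicate 2 (adjusted p = 0.12), without imiquimod replicate 1 (3.32, adjusted p = 0.34) and without imiquimod replicate 2 (6.68, adjusted p = 0.057). In single-library leave-outs 0 of these 9 calls held each time, while 4 without knockout replicate 1, 5 without knockout replicate 2, 7 without knockout replicate 3, 1 without imiquimod replicate 1 and 6 without imiquimod replicate 2 ended, at adjusted p-values of 0.054 to 0.41. For ended calls it was -1.14 for Skint1 (adjusted p = 0.41) without imiquimod replicate 2. 6 of the 9 held against the Cre-negative imiquimod libraries. DESeq2 called 9 of the list and limma-voom 2.

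Of the Ly6 family genes tested, 3 were lower and 1 was higher. Slurp1, a secreted Ly6 protein of the cornified layer, was at 0.509, 0.194 and 0.113 CPM in knockout and 9.70 and 9.43 CPM in imiquimod skin (-5.66 ± 0.56, adjusted p = 9.4e-05), with controls at 5.05 to 28.3 CPM. Slurp2 (-3.50 ± 0.74, adjusted p = 0.017) and Ly6g6c (-1.59 ± 0.38, adjusted p = 0.028) were lower and Ly6c1 was higher (1.59 ± 0.37, adjusted p = 0.026) among 14 tested Ly6 genes, whose median was -0.23 and 0.03 with library size alone. Of these 4 calls 1 stood whichever of the 5 libraries was left out, and 3 without knockout replicate 2, 3 without knockout replicate 3, 2 without imiquimod replicate 1 and 1 without imiquimod replicate 2 ended, at adjusted p-values of 0.052 to 0.26. 2 of the 4 held against the Cre-negative imiquimod libraries. DESeq2 called 7 of the list and limma-voom 2.

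Alox8, a lipoxygenase (ENSMUSG00000020891.12, chr11:69074758-69088669, minus strand, GRCm39), was at 1.78, 0.873 and 1.27 CPM in knockout skin, overlapping the controls at 0.671 to 13.0 CPM, and at 191 and 353 CPM in imiquimod skin (-7.77 ± 0.97, adjusted p = 0.00051). Alox12e, an epidermal lipoxygenase, was at 0, 0.194 and 0.0846 CPM and 0.283 and 10.7 CPM (-5.59 ± 1.25, adjusted p = 0.021) against 44.3 to 194 CPM in the controls, so imiquimod skin was low for it too. Ptgs2, cyclooxygenase 2, was higher at 14.5, 146 and 49.5 CPM against 3.25 and 6.55 CPM (3.85 ± 0.85, adjusted p = 0.02), and the phospholipase Pla2g2d was lower (-1.41 ± 0.38, adjusted p = 0.047). In all, 1 of 22 eicosanoid enzymes was higher and 3 were lower, with a median of -0.37. Of these 4 calls 1 stood whichever of the 5 libraries was left out, and 1 without knockout replicate 1, 3 without knockout replicate 2, 1 without knockout replicate 3, 2 without imiquimod replicate 1 and 3 without imiquimod replicate 2 ended, at adjusted p-values of 0.05 to 0.43. Among ended calls the log2 fold change became -1.46 for Alox12e (adjusted p = 0.43) without imiquimod replicate 2, and 2.74 for Ptgs2 (adjusted p = 0.051) without knockout replicate 2. 1 of the 4 held against the Cre-negative imiquimod libraries, where Ptgs2 was at 2.88, Alox12e was at -3.93 and Pla2g2d was at -0.75. DESeq2 called 6 of the list and limma-voom 2. Of 17 necroptosis and pyroptosis genes 4 were lower and 0 higher, with a median of -0.78. Gsdma, a gasdermin of skin, was at 130, 97.7 and 110 CPM and 618 and 348 CPM (-2.10 ± 0.35, adjusted p = 0.0035), and Nlrp10 (-2.05 ± 0.40, adjusted p = 0.01), Gsdmc3 (-3.29 ± 0.85, adjusted p = 0.041) and the DNA sensor Aim2 (-1.48 ± 0.40, adjusted p = 0.048) were the others. Of these 4 calls 0 stood whichever of the 5 libraries was left out, and 2 without knockout replicate 1, 2 without knockout replicate 3, 4 without imiquimod replicate 1 and 2 without imiquimod replicate 2 ended, at adjusted p-values of 0.058 to 0.15. 1 of the 4 held against the Cre-negative imiquimod libraries, where Gsdma was at -1.27, Gsdmc3 was at -0.25 and Nlrp10 was at -0.73. DESeq2 called 6 of the list and limma-voom 3.

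Hair shaft and inner root sheath genes had the lowest list median, -7.07, with 5 of 28 tested genes lower and 0 higher. These calls rest on imiquimod replicate 1. The summed level of the list overlapped, at 4027, 1164 and 1275 CPM in knockout and 3279 and 1164 CPM in imiquimod skin. Against each group's own DMSO skin the list's median was -3.96 for knockout and -3.08 for imiquimod skin. With the Cre-negative imiquimod libraries in place of the wild-type ones the median was -0.94. Krt25, a keratin of the inner root sheath, was at 0, 0.0971 and 0.0564 CPM in knockout skin and at 199 and 7.87 CPM in imiquimod skin, where replicate 1 stood alone. In the controls it ran from 0 to 1964 CPM, with wild-type DMSO replicate 2 at the top. Its log2 fold change was -10.56 ± 2.71 (adjusted p = 0.04). Krt28 (-8.60 ± 1.63, adjusted p = 0.0087), Krt35 (-8.78 ± 2.32, adjusted p = 0.045), Krt32 (-4.62 ± 1.14, adjusted p = 0.034) and Krtap3-2 (-5.20 ± 1.24, adjusted p = 0.029) were also lower. With 1 library left out at a time, 0 of these 5 calls held each time, and the rest ended at adjusted p-values of 0.052 to 0.96, 3 without knockout replicate 1, 4 without knockout replicate 2, 4 without knockout replicate 3 and 5 without imiquimod replicate 1. Log2 fold changes of ended calls included -6.82 for Krt25 (adjusted p = 0.35), -4.83 for Krt28 (adjusted p = 0.16), -1.40 for Krt32 (adjusted p = 0.77), -5.07 for Krt35 (adjusted p = 0.56) and -0.36 for Krtap3-2 (adjusted p = 0.96) without imiquimod replicate 1, and -5.25 for Krt32 (adjusted p = 0.11) and -7.32 for Krt35 (adjusted p = 0.17) without knockout replicate 3, and -10.74 for Krt35 (adjusted p = 0.068) without knockout replicate 1. DESeq2 called 12 of the list and limma-voom 0. Krtap3-3, outside the list, was at 0, 0.0971 and 0.0564 CPM and 288 and 1.17 CPM (-11.04 ± 2.59, adjusted p = 0.026). Its call ended without knockout replicate 1 (adjusted p = 0.053), without knockout replicate 2 (adjusted p = 0.099), without knockout replicate 3 (adjusted p = 0.11) and without imiquimod replicate 1 (-4.07, adjusted p = 0.66). With the Cre-negative imiquimod libraries 0 of the 5 calls held, and Krt32 and Krtap3-2 were then at 0.02 and 0.20. Such genes are made in growing follicles, and the stage of the hair cycle is not given for any library. Of 18 tested follicle stem and outer root sheath genes 1 was lower, Sostdc1 (-1.2 ± 0.32, adjusted p = 0.047). Its call ended without knockout replicate 1 (adjusted p = 0.069), without knockout replicate 2 (adjusted p = 0.17), without knockout replicate 3 (adjusted p = 0.058), without imiquimod replicate 1 (adjusted p = 0.26) and without imiquimod replicate 2 (adjusted p = 0.065).

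Dermal genes had calls on the higher side. Of 28 tested fibroblast and matrix genes 6 were higher and 0 lower, with a median of 1.06. The summed level was 3317, 2352 and 2590 CPM in knockout and 934 and 1236 CPM in imiquimod skin. It was 4292, 4125 and 4664 CPM in Cre-negative and 2264 and 4254 CPM in wild-type DMSO skin, so the knockout libraries lay below all Cre-negative ones. Against each group's own DMSO skin the list's median was -0.73 for knockout and -1.43 for imiquimod skin. Elastin, Eln, was at 14.3, 41.5 and 25.6 CPM and 3.96 and 5.84 CPM (2.48 ± 0.49, adjusted p = 0.012). Fbln2, a fibulin, was at 44.6, 26.6 and 25.2 CPM and 6.73 and 5.45 CPM (2.38 ± 0.44, adjusted p = 0.0076). The collagen gene Col5a2 was at 32.3, 22.4 and 22.2 CPM and 4.80 and 7.32 CPM (2.08 ± 0.37, adjusted p = 0.0055). Ccn2 (2.27 ± 0.53, adjusted p = 0.026), Col3a1 (2.13 ± 0.53, adjusted p = 0.034) and Col1a2 (1.96 ± 0.52, adjusted p = 0.048) were higher too. The imiquimod libraries lay below every control for Eln, Fbln2, Col5a2, Ccn2 and Col1a2 and overlapped the controls for Col3a1. Leaving out single libraries kept 0 of these 6 calls each time and ended 2 without knockout replicate 1, 2 without knockout replicate 2, 3 without knockout replicate 3, 6 without imiquimod replicate 1 and 3 without imiquimod replicate 2, at adjusted p-values of 0.053 to 0.39. DESeq2 called 11 of the list and limma-voom 4. With the Cre-negative imiquimod libraries 1 of the 6 held, and Col1a2 lay the other way at -0.18.

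Matrix proteases had 4 of 18 tested genes higher and 0 lower, with a median of 1.46. Mmp9, a gelatinase, was at 194, 66.8 and 152 CPM in knockout and 31.4 and 19.8 CPM in imiquimod skin (2.42 ± 0.58, adjusted p = 0.029). Mmp14, a membrane-bound collagenase, was at 86.1, 133 and 114 CPM and 26.4 and 47.5 CPM (1.59 ± 0.33, adjusted p = 0.014). Mmp2 (1.70 ± 0.39, adjusted p = 0.025) and the low-level stromelysin Mmp10 (5.81 ± 1.08, adjusted p = 0.0079) were the others. In single-library leave-outs 0 of these 4 calls held each time, while 1 without knockout replicate 1, 1 without knockout replicate 2, 2 without knockout replicate 3, 4 without imiquimod replicate 1 and 1 without imiquimod replicate 2 ended, at adjusted p-values of 0.05 to 0.26. For ended calls it was 4.65 for Mmp10 (adjusted p = 0.12) without imiquimod replicate 1. 1 of the 4 held against the Cre-negative imiquimod libraries, where Mmp2 was at 0.93, Mmp10 was at 1.83 and Mmp14 was at 0.44. DESeq2 called 7 of the list and limma-voom 1. Of 20 endothelial markers 2 were higher, Esam (1.71 ± 0.34, adjusted p = 0.012) and the adhesion molecule Vcam1 (2.57 ± 0.64, adjusted p = 0.034), with a median of 1.09. Melanocyte markers had 1 of 11 higher, Tyrp1 (3.76 ± 1.0, adjusted p = 0.045). HOX genes had 1 of 25 higher, Hoxc8 (1.47 ± 0.32, adjusted p = 0.017), and the medians of the melanocyte and HOX lists were 1.22 and 0.23. Among 26 skeletal muscle markers 1 was higher, Mybpc1 (1.83 ± 0.49, adjusted p = 0.049), with a median of 0.39. For the HOX and muscle lists 1 call lies near the 2.26% of all tested genes that were higher. Against the Cre-negative imiquimod libraries the calls of Tyrp1 and Mybpc1 held and that of Hoxc8 did not. Among 17 adipocyte markers Thrsp was higher (3.01 ± 0.80, adjusted p = 0.047) and Dgat1 lower (-1.96 ± 0.41, adjusted p = 0.015), with a median of 0.01. All 7 of these calls, from the endothelial to the adipocyte list, ended without imiquimod replicate 1, 6 without imiquimod replicate 2, 3 without knockout replicate 1, 4 without knockout replicate 2 and 3 without knockout replicate 3, at adjusted p-values of up to 0.34.

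Lists of general cell functions held no call at this depth. The NEDD8 pathway and cullin-RING ligase genes (0 of 33 tested), constitutive proteasome subunits (0 of 32), unfolded protein and stress response genes (0 of 32), DNA replication and mitosis (0 of 45), glycolysis and hypoxia targets (0 of 27) and respiratory chain subunits (0 of 42) had no gene past edgeR's test. In the same order 5, 4, 5, 8, 1 and 2 genes had an unadjusted p under 0.05, DESeq2 called 2, 0, 1, 1, 0 and 0, and limma-voom called 1 gene, of the unfolded protein list. Their medians were 0.11, 0.24, 0.01, 0.33, 0.08 and -0.06. The summed level of the mitosis list was 2037, 1870 and 2492 CPM in knockout and 1821 and 1756 CPM in imiquimod skin, against 527 to 1154 CPM in the controls, so both groups stood above the controls. Mki67, a proliferation marker, was at 19.6, 42.4 and 82.9 CPM and 50.0 and 47.2 CPM. Cdt1, a replication licensing factor degraded through cullin ligases, was at 16, 22.1 and 36.5 CPM and 30.8 and 33.4 CPM (-0.35 ± 0.34, adjusted p = 0.63). Ccne1 was at 9.42, 19.1 and 17.5 CPM and 7.68 and 11.9 CPM (0.67 ± 0.40, adjusted p = 0.4). Heat shock genes had 2 of 15 higher, the small chaperones Cryab, at 53, 108 and 87.8 CPM against 4.19 and 7.95 CPM (3.79 ± 0.53, adjusted p = 0.0011), and Hspb1 (1.35 ± 0.33, adjusted p = 0.031). Against the Cre-negative imiquimod libraries the call of Cryab ended (adjusted p = 0.056) and that of Hspb1 held. Among 24 p53 targets Pmaip1 was higher (1.96 ± 0.46, adjusted p = 0.028) and Btg2 lower (-1.56 ± 0.27, adjusted p = 0.0049). Hspb1 lost its call without knockout replicate 2 (adjusted p = 0.065), without knockout replicate 3 (adjusted p = 0.091), without imiquimod replicate 1 (adjusted p = 0.28) and without imiquimod replicate 2 (adjusted p = 0.059). Pmaip1 lost its call without knockout replicate 2 (adjusted p = 0.078), without knockout replicate 3 (adjusted p = 0.09) and without imiquimod replicate 1 (adjusted p = 0.26).

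The knockout response over Cre-negative DMSO skin was also set against the imiquimod response over wild-type DMSO skin in the same model. The aim was to take out differences between the mouse lines at baseline. Cre-negative DMSO replicates 1 and 2 carried Y-linked reads, at 146 and 144 CPM, and the other libraries of this contrast at most 1.5 CPM. Sex differences therefore enter this contrast and the medians over Cre-negative DMSO skin, and their share was not tested. This difference of responses passed the threshold for 296 of 16027 genes (1.85%), with 128 higher (0.799%) and 168 lower (1.05%) in the knockout response. NRF2 targets held 12 higher and 0 lower of 45, sebaceous genes 1 higher and 7 lower of 21, dendritic and Langerhans markers 1 higher and 5 lower of 20 and Skint genes 4 lower of 10. For Srxn1 the difference of responses was 3.56 ± 0.47 (adjusted p = 0.0023), for Gclc 6.36 ± 0.79 (adjusted p = 0.0017), for Gpx2 7.17 ± 0.75 (adjusted p = 0.00044) and for Mal 8.63 ± 0.76 (adjusted p = 0.00025). For Far2 it was -10.99 ± 0.99 (adjusted p = 0.00025), for Il12b -11.42 ± 1.11 (adjusted p = 0.00044), for Slurp1 -7.03 ± 0.72 (adjusted p = 0.00044) and for Il1rn -3.57 ± 0.56 (adjusted p = 0.0061). Of the melanocyte markers 6 of 11 passed as higher, such as Dct at 5.74 ± 0.95 (adjusted p = 0.0079), where the wild-type DMSO replicates stood at 128 and 683 CPM. Without wild-type DMSO replicate 2, 57 genes passed in place of 296.

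For other lists with 2 or 3 calls, the calls that held against the Cre-negative imiquimod libraries were 3 of 3 stefin and cystatin genes, 2 of 2 IL-1 family genes and 2 of 2 neutrophil markers. They were also 1 of 2 heat shock genes, 1 of 2 p53 targets, 1 of 2 endothelial markers and 0 of 2 adipocyte markers. limma-voom called 0 endothelial, 1 adipocyte, 1 neutrophil and 1 IL-1 family gene, and DESeq2 called 5, 2, 4 and 2.

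**Figure D5:**
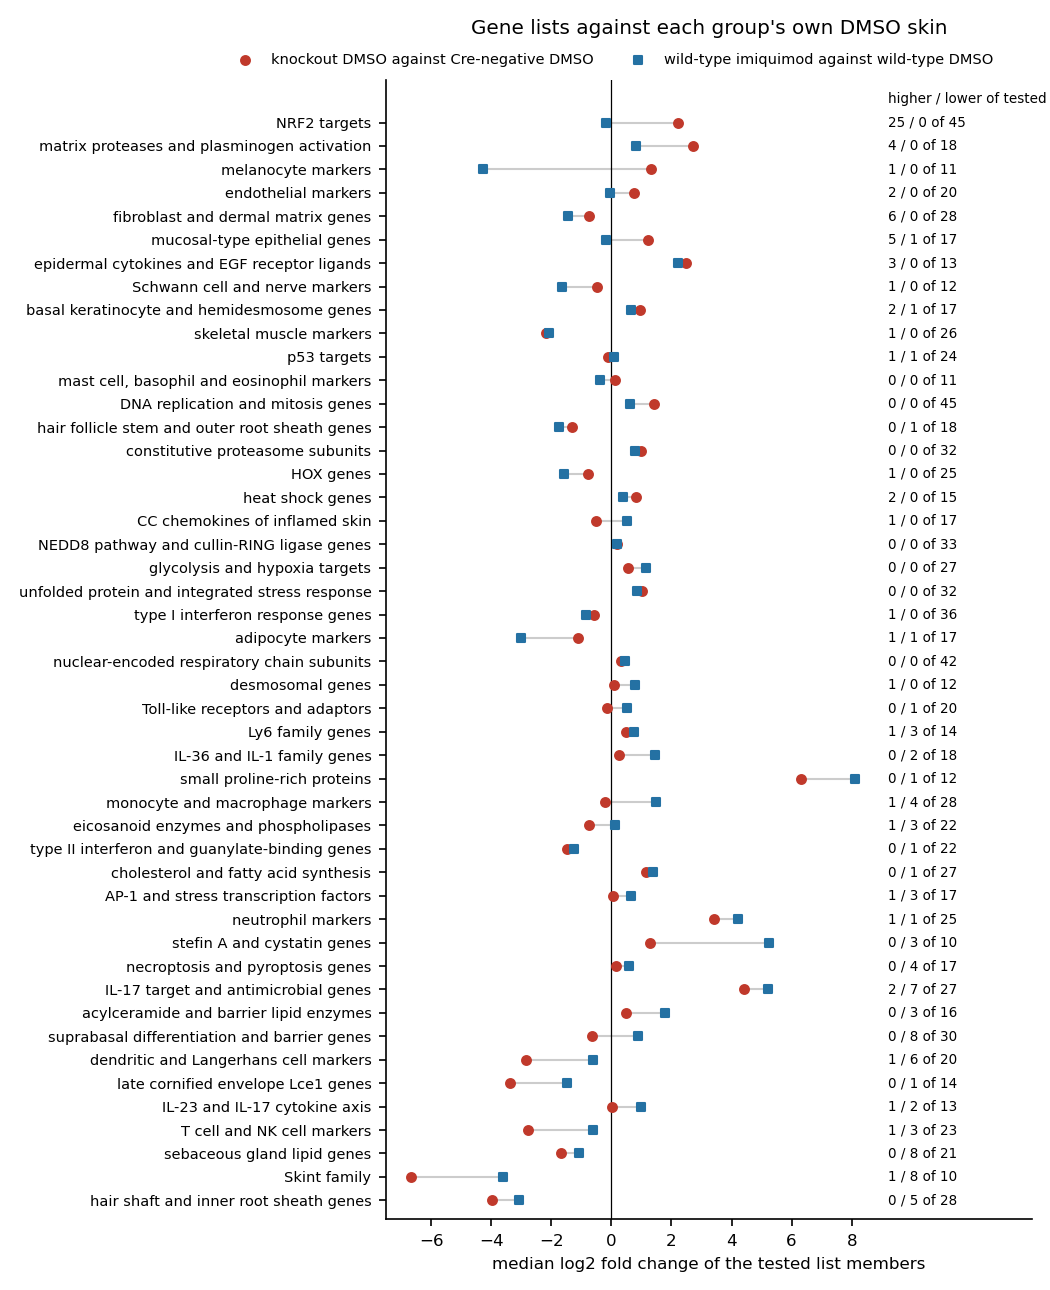
Median log2 fold change of each list with at least 10 tested members, as red circles for knockout DMSO against Cre-negative DMSO skin and blue squares for wild-type imiquimod against wild-type DMSO skin. The numbers at the right are the members higher and lower in knockout DMSO against wild-type imiquimod skin, and the lists are ordered by the median of that comparison. NRF2 targets stand at 2.21 and -0.17, Skint genes at -6.67 and -3.62, and small proline-rich proteins at 6.31 and 8.11.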

How the data were processed

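RNA from mouse skin was made into 3′ tag libraries with the QuantSeq FWD kit, per the labels' protocols. The authors deposited whole-number read counts per gene for all 14 libraries in 1 table with gene positions on GRCm39. The submitters' processing notes name STAR, featureCounts, DESeq2, GRCm38 and GRCm39 without roles. Neither versions nor the treatment of strand and of reads with several matches are given there. The labels' extraction text speaks of treated cells, while the tissue label is skin.

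Samples were grouped by their labels into 6 groups. Genes were kept by edgeR's filterByExpr (16027 of 56953), scaled by TMM and fitted with edgeR 4.0.16 (R 4.3.3) in 1 quasi-likelihood model of the 6 group means, so that all 14 libraries share the estimate of spread. P-values were adjusted by Benjamini-Hochberg over all tested genes with a threshold of 0.05. Standard errors were derived from the F statistic. Levels per library are CPM, counts scaled to library depth, after TMM scaling, and folds against a group without reads use a floor of 3 counts over the group, 0.0604 CPM in the knockout and 0.0881 CPM in the imiquimod group. Such floors cover counting error only, and tags without molecular identifiers are not independent molecules. The fit was tested on simulated counts. Total counts ran from 5552954 to 34362477 per library.

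The genes named were the 15 highest and 15 lowest log2 fold changes and the 10 largest differences in CPM in each direction among called genes without overlap, with at least 10 CPM in the higher group and no clone name, then up to 4 genes with the smallest p of each of 52 gene lists, and a fixed panel. All other list members past the threshold may also be named, an addition made after their values were seen. The members and lists were chosen with earlier results of these data known. Of the 1118 distinct list genes 1107 are in the table and 1029 were tested. Alternatives were DESeq2 1.42.0, limma 3.58.1 with voom and quality weights, other scalings and filters, a 2-fold test, a replicate block, the compared groups alone, libraries without ribosomal RNA genes, the Cre-negative imiquimod libraries and each library left out. Promoter sequences are from RefSeq, GRCm38.p6, matched by symbol, and were not combined with GRCm39 positions. A few list members are counted but not reported by name here.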

Additional observations from a re-analysis of the deposited data

How the results depend on the processing

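The 828 calls, 363 higher and 465 lower, became 1413 (671 and 742) with DESeq2, 477 (179 and 298) with limma-voom, 258 (113 and 145) with a test against a 2-fold change, 1597 (673 and 924) without the filter on low counts and 244 (100 and 144) when only the 2 groups compared were fitted. With library size alone 239 genes were lower, and with upper-quartile scaling 50.3% of calls were higher. Leaving out 1 library gave 284 to 900 calls, 84 to 429 of them higher and 200 to 575 lower. The 296 genes of the difference of responses became 761 with DESeq2, 125 with the 2-fold test, 931 without the filter and 57 to 428 with 1 library left out. The other alternatives kept both totals within 1.5 times, among them the set without ribosomal RNA genes (827 and 300). The cause of these shifts was not tested.

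Replicate numbers are shared by 2 pairs only, with deviations from the group means correlated at 0.49 and 0.41. With 2 imiquimod replicates their deviations mirror each other, so each knockout replicate correlates with 1 of them. Knockout replicate 3, without a partner of its number, correlated at 0.33 with imiquimod replicate 2. Nothing in the labels ties equal numbers to 1 animal or day. With the replicate block 588 genes were called, 279 higher and 309 lower, and 257 in the difference of responses.

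With the Cre-negative imiquimod libraries in place of the wild-type ones 755 genes were called, 413 of the 828 calls held and 798 kept their direction. Those libraries carried Y-linked reads at 135 and 130 CPM, unlike the knockout and wild-type imiquimod libraries. Sex and mouse line therefore change together in this check and cannot be told apart. Direction was reversed there for Col1a2 (-0.18), Ier3 (0.31), Krt32 (0.02), Krtap3-2 (0.20) and Tslp (-1.36). Of 176 called genes that the naming rule and lists hold, 66 held in each leave-out and 57 in each alternative. In the simulation with 3 and 2 libraries, differences near 2-fold were mostly missed.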
